A study of Mus musculus with 16 samples.

Results

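The 9 genes followed here act in bone formation and mineral deposition, and were read in the arterial and valve tissue of mice lacking 1 copy of the elastin gene: Runx2, Sp7, Dlx5, Dlx6, Alpl, Spp1, Mgp, Enpp1 and Ibsp. The genes were listed by name, with no threshold on their values, and shown by the probe sets that the array annotation pairs with that 1 symbol. Of the 9 genes, 6 had such probe sets, out of 18193 genes so measured in all. They filled 7 of the 45037 probe sets tested: Sp7 (1418425_at), Dlx5 (1449863_a_at), Dlx6 (1452507_at), Alpl (1423611_at), Mgp (1448416_at) and Ibsp (1417484_at and 1417485_at). Runx2, Spp1 and Enpp1 had none under these symbols and were not analysed here.

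RNA came from mice aged 30 days, with nothing pooled, so that each array stands for 1 tissue specimen. There were 4 groups of 4 arrays: aortic valve of Eln+/- mice, aortic valve of Eln+/+ mice, ascending aorta of Eln+/- mice and ascending aorta of Eln+/+ mice. Eln encodes elastin, the stretch-bearing protein of arterial walls and valves; Eln+/- animals keep 1 intact copy, and Eln+/+ animals are the wild type. No treatment was given. A valve specimen took in the cusp, the annulus and the root. Whether equally numbered valve and aorta specimens shared a mouse is not stated in the labels. Each value is the log2 of a probe set's ratio to its own median over the 16 arrays, so that 0 marks a middling array. The exceptions are 5274 deposited probe sets with a median ratio below 1, as with a floor, for which 0 is not the middle. Ibsp 1417484_at is 1 of these. Such values rank arrays within a probe set and hold no signal level, so expression could not be compared between genes.

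Bone mineral is laid down when transcription factors such as Runx2 and Sp7 turn mesenchymal cells into osteoblasts, which secrete a collagen matrix and remove pyrophosphate, a blocker of crystal growth. Arteries and valves carry inhibitors that keep calcium phosphate out of their matrix, Mgp foremost among them. In calcified arteries and valves, genes of the osteoblast programme are known to be expressed by resident cells.

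Alpl and Ibsp, an enzyme and a matrix protein of bone, are textbook genes of the osteoblast programme that the listed transcription factors take part in. Their upstream regions are shown, as the measured genes with a promoter entry. RefSeq promoter entries (GRCm38.p6) were matched for these 2 of the 6 measured genes, with 2 starts for Alpl. The 250 bases before each start are printed 5′ to 3′ on the gene's strand. Capitals mark the letters of any of 4 motifs, searched on both strands. The homeodomain core, bound by proteins such as the Dlx factors, is TAATT, which reads AATTA on the opposite strand. The GC box is GGGCGG, or in reverse CCGCCC. The CCAAT box reads ATTGG in reverse. The RUNX core is TGTGGT, or in reverse ACCACA.
Ibsp, plus strand, chr5:104299037-104299286: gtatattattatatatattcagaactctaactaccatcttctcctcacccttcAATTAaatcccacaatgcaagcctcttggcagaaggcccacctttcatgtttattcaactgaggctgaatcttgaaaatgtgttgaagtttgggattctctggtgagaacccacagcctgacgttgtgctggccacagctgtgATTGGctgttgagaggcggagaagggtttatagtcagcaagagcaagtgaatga
Alpl first start, minus strand, chr4:137796385-137796634: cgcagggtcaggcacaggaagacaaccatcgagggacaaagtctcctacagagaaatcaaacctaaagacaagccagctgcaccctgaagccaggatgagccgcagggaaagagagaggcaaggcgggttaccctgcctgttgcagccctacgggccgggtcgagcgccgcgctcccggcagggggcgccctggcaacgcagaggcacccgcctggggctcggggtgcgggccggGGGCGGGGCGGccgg
Alpl second start, minus strand, chr4:137766476-137766725: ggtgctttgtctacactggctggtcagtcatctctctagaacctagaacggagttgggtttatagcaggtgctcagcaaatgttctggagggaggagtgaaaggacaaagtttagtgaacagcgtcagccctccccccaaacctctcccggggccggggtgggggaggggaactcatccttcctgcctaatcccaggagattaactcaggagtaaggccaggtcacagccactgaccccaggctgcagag
The Ibsp window held 1 homeodomain core, beginning 197 bases before the start, and 1 CCAAT box in reverse, 54 bases before it. The first Alpl window held 2 GC boxes that share letters with each other, at 15 and 10 bases before the start, and the second held none of the 4 motifs. Over 32851 promoter windows of the same length, 25.0% held the homeodomain core, 32.7% the GC box, 33.8% the CCAAT box and 14.0% the RUNX core. The GC content was 43.6% for Ibsp and 68.4% and 56.0% for the first and second Alpl windows, with a median of 52.4% over all windows. Sp7, Dlx5, Dlx6 and Mgp had no entry. On the same build Dlx5 (chr6:6877801-6882068) and Dlx6 (chr6:6863334-6867970) lie 9830 bases apart with 0 annotated genes lying wholly between them. Genes that overlap either of them were not counted. Mgp lies on the same chromosome (chr6:136872435-136875823), and Sp7 on another (chr15:102356603-102367035). The build behind the array annotation is not given in the sources used here.

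Features of the whole data set that touch every comparison were as follows. Eln averaged lower in Eln+/- than in Eln+/+ arrays on both of its probe sets in both tissues, by 0.42 and 0.22 log2 units in the aorta and 1.27 and 0.61 in the valve, with exact two-sided permutation p of 0.0571, 0.0286, 0.0571 and 0.143, where 0.0286 is the smallest that 4 against 4 arrays allow. Heart muscle markers marked the tissues: the mean of 20 such genes lay between 0.53 and 2.31 in the 8 valve arrays and between -3.61 and -0.90 in the 8 aorta arrays. Within the valve it was 1.51 to 2.31 in Eln+/- and 0.53 to 1.53 in Eln+/+ arrays. Thymocyte markers, 12 of 13 measured, averaged 1.60 and 0.80 in aorta Eln+/- replicates 2 and 4, against -0.32 to 0.048 in the other 14 arrays. The log2 ratio of Xist minus the mean of those of the Y-linked genes fell into 2 ranges far apart, 0.27 to 0.84 and -11.05 to -10.65. The upper range held 4 of 4 valve Eln+/-, 1 of 4 valve Eln+/+, 4 of 4 aorta Eln+/- and 1 of 4 aorta Eln+/+ arrays, so the effect of genotype and that of sex cannot be fully told apart. For Eln+/+ replicates 2 and 4 the equally numbered valve and aorta arrays lay in different ranges, so that by this signal these pairs did not come from 1 mouse. In whole tissue, fewer cells of a type and less RNA per cell cannot be told apart either.

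Of the 7 probe sets, 1 passed the test in any comparison. Dlx5 was lower in the valve than in the aorta of Eln+/- mice. No gene of the set passed for genotype in the valve or in the aorta, where 0 of all probe sets passed. Eln itself did not pass in the same fit. Its limma adjusted p was 0.9001 and 0.9198 in the aorta, and 0.3947 and 0.4541 in the valve. All tests below come from 1 limma fit of all 16 arrays, adjusted by Benjamini-Hochberg over 45037 probe sets with a threshold of 0.05.

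Among the transcription factors, Dlx5, a homeobox gene that directs development of the skeleton and face, varied most. Its SD over the 16 arrays was 1.21 log2 units, at the 99.1 percentile of all probe sets, whereas the other 6 probe sets had SDs of 0.188 to 0.442, at percentiles from 14.2 to 73.6. In Eln+/- valve, replicates 1 to 4 stood at -1.37, -1.05, -1.18 and 0.11, and in Eln+/+ valve at -1.45, -1.11, -0.79 and 0.0081. In Eln+/- aorta they stood at 1.63, 2.22, 0.59 and 1.16, and in Eln+/+ aorta at -0.0082, 0.65, 1.32 and -1.53. Every Eln+/- aorta array was thus above every Eln+/- valve array, while in Eln+/+ mice the tissues overlapped. Aorta Eln+/+ replicate 4 was the lowest of all 16 arrays, and aorta Eln+/+ replicate 1 also lay below valve Eln+/+ replicate 4.

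Dlx5 averaged -0.87 ± 0.67 in Eln+/- valve and 1.40 ± 0.69 in Eln+/- aorta (SD, n = 4 each). The difference was -2.27 ± 0.53 log2 units (SE), 4.84-fold lower in the valve, with a 95% interval of -3.39 to -1.16 and a limma adjusted p of 0.01806. This was 1 call among the 7 probe sets, where 5.81% of all probe sets were called in the comparison and 2.54% were called lower in the valve. The call was lost without valve Eln+/- replicate 1 (-2.11, adjusted p 0.05921), valve Eln+/- replicate 3 (-2.17, adjusted p 0.06137) or aorta Eln+/- replicate 1 (-2.20, adjusted p 0.05443). It was also lost without both aorta arrays with high thymocyte markers (-1.98, adjusted p 0.1193), a choice made after seeing the data. In these settings fewer arrays were fitted, and calls over all probe sets were 1640, 1366, 1600 and 1578 in that order, against 2615. In aorta Eln+/- replicates 1 to 4 the thymocyte mean was -0.15, 1.60, 0.048 and 0.80, beside Dlx5 at 1.63, 2.22, 0.59 and 1.16. All 20 heart muscle markers were higher in the valve of these mice, each of them called, and 7 of 8 fat cell markers averaged lower, 0 of them called. Thymocyte markers averaged lower in 12 of 12, 1 of them called and 8 with an unadjusted p under 0.05, and smooth muscle markers in 11 of 12, 5 of them called. The part of these tissue differences in the Dlx5 value was not tested.

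In Eln+/+ mice Dlx5 averaged -0.83 ± 0.62 in valve and 0.11 ± 1.22 in aorta (SD, n = 4 each), a difference of -0.94 ± 0.53 (SE) with an interval of -2.06 to 0.18 and a limma adjusted p of 0.5089. Without aorta Eln+/+ replicate 3 it was -0.54 and without aorta Eln+/+ replicate 4 it was -1.49. Fat cell marker means in Eln+/+ aorta replicates 1 to 4 were 1.64, -0.71, -0.81 and 2.86, where Dlx5 read -0.0082, 0.65, 1.32 and -1.53. In Eln+/- aorta these means were 0.19, 2.38, 0.87 and 0.23, where Dlx5 read 1.63, 2.22, 0.59 and 1.16. The part of fat cell content in the Dlx5 values was not tested. Between genotypes Dlx5 differed by 1.29 ± 0.53 (SE) in the aorta, with an interval of 0.18 to 2.41, an unadjusted p of 0.02613 and a limma adjusted p of 0.8854. The aortic groups overlapped, and without 1 array that value ranged from 0.75 to 1.70. In the valve the genotype difference was -0.037 ± 0.53 (SE), with an interval of -1.16 to 1.08 and a limma adjusted p of 0.9928. With the Xist minus Y-linked signal as a covariate these genotype differences were 2.18 in the aorta and 0.87 in the valve, and neither passed. That adjustment rests mainly on valve Eln+/+ replicate 2 and aorta Eln+/+ replicate 4. They were the only Eln+/+ arrays in the upper range, which held all Eln+/- arrays, and the latter was the lowest for Dlx5. The genotype difference in the valve minus that in the aorta was -1.33 ± 0.74 (SE; limma adjusted p 0.6852). Without aorta Eln+/+ replicate 3 it was -1.73 and without aorta Eln+/+ replicate 4 it was -0.79. By group mean Eln+/- aorta came highest, then Eln+/+ aorta, Eln+/+ valve and, lowest, Eln+/- valve, and no 2 neighbours in that order passed the test.

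Dlx6, the neighbour of Dlx5 with a similar part in skeletal development, moved over a narrower range. Its values for replicates 1 to 4 were -0.26, 0.32, 0.22 and -0.035 in Eln+/- valve, -0.069, -0.019, -0.43 and -0.22 in Eln+/+ valve, 0.44, 1.04, -0.16 and 0.17 in Eln+/- aorta, and -0.11, 0.22, 0.18 and 0.019 in Eln+/+ aorta. The highest array of Dlx6, aorta Eln+/- replicate 2, was also the highest of Dlx5 and of the thymocyte markers, and all groups overlapped. That array had the highest macrophage (0.92) and erythroid (1.48) marker means of the 16, the lowest smooth muscle mean of the aorta (-0.79), a fat cell marker mean of 2.38 and the lowest limma array weight (0.445). Valve minus aorta was -0.31 ± 0.21 (SE; limma adjusted p 0.4853) in Eln+/- and -0.26 ± 0.21 (SE; limma adjusted p 0.6742) in Eln+/+ mice. Eln+/- minus Eln+/+ was 0.29 ± 0.21 (SE; limma adjusted p 0.8977) in the aorta and 0.25 ± 0.21 (SE; limma adjusted p 0.7856) in the valve. Without both aorta arrays with high thymocyte markers the aortic genotype difference of Dlx6 was 0.063 and valve minus aorta in Eln+/- mice -0.077. Without aorta Eln+/- replicate 2 alone that tissue difference was -0.087. Across the 8 aorta arrays Dlx5 and Dlx6 correlated with r = 0.69, and across the 8 valve arrays with r = -0.20, as descriptions of arrays that also share genotype and tissue content.

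Sp7, or osterix, a zinc finger factor required for osteoblast formation, showed no separation of groups. Eln+/- valve arrays read 0.28, 0.52, -0.54 and -0.20, and Eln+/+ valve arrays 0.0096, 0.013, -0.27 and -0.23. Eln+/- aorta arrays read 0.084, -0.097, -0.30 and -0.0097, and Eln+/+ aorta arrays -0.15, 0.37, 0.34 and 0.080. The widest spread was within Eln+/- valve (SD 0.48), larger than any difference between group means. Those differences, each ± 0.20 (SE), were -0.24 for genotype in the aorta, 0.13 for genotype in the valve, 0.098 for tissue in Eln+/- and -0.28 for tissue in Eln+/+ mice, with limma adjusted p of 0.6261 to 0.9047.

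Alpl, the tissue-nonspecific alkaline phosphatase that splits pyrophosphate, was the enzyme measured. It read 0.012, 0.26, -0.012 and 0.33 in the Eln+/- valve arrays, -0.31, -0.32, 0.026 and 0.012 in Eln+/+ valve, -0.67, -0.23, -0.31 and -0.12 in Eln+/- aorta, and 0.52, 0.16, 0.012 and -0.27 in Eln+/+ aorta. The 4 Eln+/- aorta arrays all lay below 0, and all lay below the 4 Eln+/- valve arrays. In that comparison 2 of the 7 probe sets, Alpl and Dlx5, had groups that did not overlap, as did 11.0% of all probe sets. In the other comparisons of 2 groups 0 of the 7 were so separated, against 2.84% of all for genotype in the aorta, 5.04% for genotype in the valve and 7.68% for tissue in Eln+/+ mice. The tissue difference in Eln+/- mice was 0.48 ± 0.17 (SE), with an interval of 0.11 to 0.85, an unadjusted p of 0.01482 and a limma adjusted p of 0.1321, so it did not pass. In Eln+/+ mice it was -0.25 ± 0.17 (SE; limma adjusted p 0.6077).

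Between genotypes Alpl averaged -0.33 ± 0.24 in Eln+/- aorta and 0.10 ± 0.33 in Eln+/+ aorta (SD, n = 4 each), a difference of -0.44 ± 0.17 (SE) with an interval of -0.81 to -0.065 and a limma adjusted p of 0.8854. In the valve it averaged 0.15 ± 0.17 in Eln+/- and -0.15 ± 0.19 in Eln+/+ arrays (SD, n = 4 each), a difference of 0.29 ± 0.17 (SE; limma adjusted p 0.6664). The genotype differences of the tissues thus had opposite signs, and the valve minus the aortic one was 0.73 ± 0.25 (SE), with an interval of 0.21 to 1.25. Its unadjusted p was 0.009499 and its limma adjusted p 0.6187. Across all probe sets 7.72% had an unadjusted p under 0.05 for that quantity and 0.00% were called, and of the 7 probe sets 1, Alpl, was under 0.05. With the Xist minus Y-linked signal as a covariate the aortic genotype difference of Alpl was -0.17 and the valve one 0.57. As for Dlx5, that adjustment rests mainly on valve Eln+/+ replicate 2 and aorta Eln+/+ replicate 4.

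**Figure D1:**
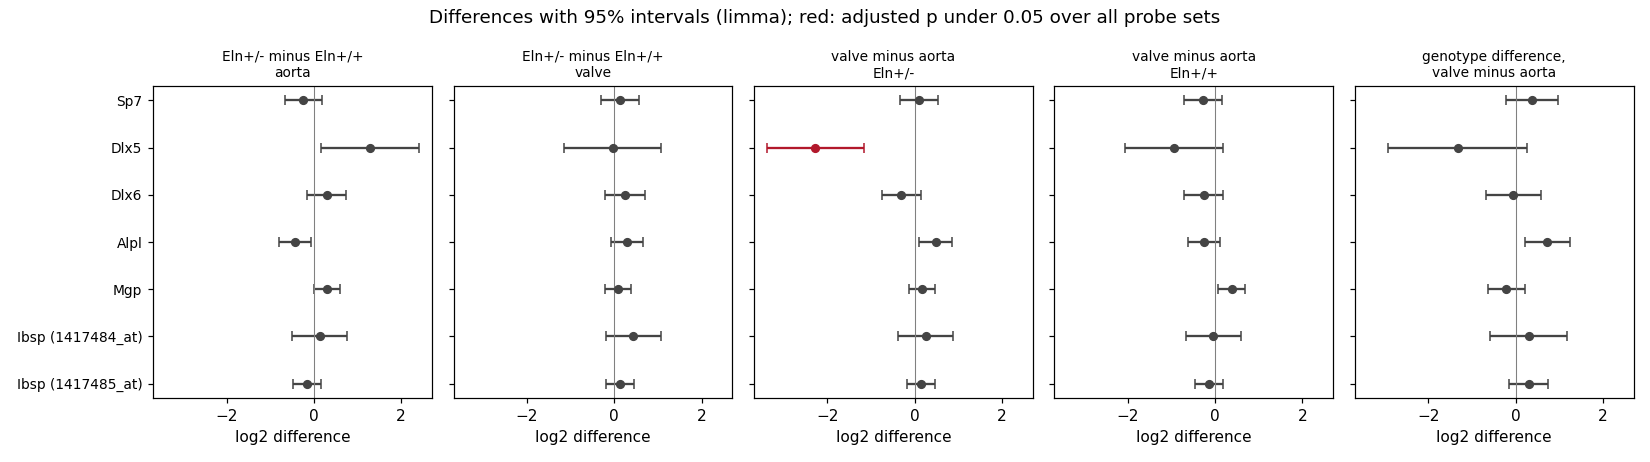
Log2 difference (horizontal axis) with its 95% interval for each of the 7 probe sets in the 5 comparisons; red marks a limma adjusted p under 0.05. The only red point is Dlx5 for valve minus aorta in Eln+/- mice, at -2.27, and the intervals of Dlx5 are the widest.

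Of the matrix proteins, Mgp, a vitamin K-dependent inhibitor of calcification made by smooth muscle and cartilage cells, read 0.23, 0.43, -0.076 and -0.0053 in Eln+/- valve and 0.066, -0.028, -0.0014 and 0.17 in Eln+/+ valve. In Eln+/- aorta it read 0.012, 0.018, -0.15 and 0.069, and in Eln+/+ aorta -0.45, -0.46, 0.0014 and -0.39. Replicates 1, 2 and 4 of Eln+/+ aorta were the lowest 3 of the 16 arrays, while replicate 3 sat among the other groups. Eln+/- minus Eln+/+ in the aorta was 0.31 ± 0.14 (SE), 1.24-fold, with an interval of 0.011 to 0.61, an unadjusted p of 0.04296 and a limma adjusted p of 0.8854. In the valve it was 0.094 ± 0.14 (SE; limma adjusted p 0.8967). Valve minus aorta was 0.38 ± 0.14 (SE; interval 0.076 to 0.67; limma adjusted p 0.2944) in Eln+/+ and 0.16 ± 0.14 (SE; limma adjusted p 0.6131) in Eln+/- mice.

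Ibsp, bone sialoprotein, a matrix glycoprotein of bone and mineralised cartilage, was on 2 probe sets whose values were unrelated over the 16 arrays (r = 0.00015). The first, 1417484_at, had a median ratio of 0.492, the 1 probe set of the 7 with a median below 1. For it 0 is therefore not the middle of the arrays. A median below 1 is what a floor would give, so most of its values may lie near that floor. Whether its differences and correlations are those of a weak signal was not tested. It read -0.86, 0.49, -1.04 and -1.15 in Eln+/- valve, -1.06, -1.24, -1.32 and -0.66 in Eln+/+ valve, -0.92, -0.47, -1.13 and -1.06 in Eln+/- aorta, and -1.01, -1.40, -0.88 and -0.83 in Eln+/+ aorta. Valve Eln+/- replicate 2 stood alone above 0. The second, 1417485_at, read 0.059, 0.024, -0.096 and 0.0073 in Eln+/- valve, -0.34, -0.0073, -0.23 and 0.026 in Eln+/+ valve, 0.062, -0.28, -0.37 and -0.027 in Eln+/- aorta, and 0.051, 0.29, 0.053 and -0.35 in Eln+/+ aorta. On the second probe set that array read 0.024, close to the others of its group. The genotype difference in the valve was 0.43 ± 0.30 (SE; limma adjusted p 0.7162) on the first and 0.14 ± 0.15 (SE; limma adjusted p 0.8434) on the second, and without valve Eln+/- replicate 2 the first gave 0.054. The 2 probe sets gave opposite signs for genotype in the aorta, 0.13 ± 0.30 and -0.16 ± 0.15 (SE), and no comparison of either passed (limma adjusted p of 0.6609 to 0.9727).

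Counted together, 0 of the 7 probe sets were called for genotype in the aorta, in the valve, or for the difference between these, and 0.00% of all probe sets were called in each. At an unadjusted p under 0.05 there were 3 of 7 in the aorta (Dlx5, Alpl and Mgp), against 5.51% of all probe sets, and 0 of 7 in the valve, against 8.60%. Members, and the lists below, were chosen with earlier results of these data known, so counts set beside shares of all are descriptions and no test. In the aorta 4 of the 7 were higher and 3 lower in Eln+/- arrays, and in the valve 6 were higher and 1 lower, while 46.8% and 51.9% of all probe sets were higher. For valve minus aorta in Eln+/- mice 2 of 7 were under 0.05 unadjusted, against 19.0% of all, with 5 higher and 2 lower, where 47.3% of all were higher. In Eln+/+ mice 0 of 7 were called, against 0.946% of all probe sets, 1 (Mgp) was under 0.05 unadjusted, against 11.8%, and 1 was higher and 6 lower, where 41.7% of all were higher. The interaction was positive for 4 of the 7 and for 53.0% of all.

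The wider pathway was followed in 5 lists of other genes, each gene shown by its probe set of highest SD. In limma, genotype called 0 genes in each list in each tissue, as it called 0 of 18193 genes in all. At an unadjusted p under 0.05 a list held 0 or 1 gene in the aorta, against 5.68% of all genes. In the valve, against 9.48% of all genes, there were 3 of 26 regulators, 4 of 14 matrix proteins, 2 of 11 phosphate genes, 1 of 15 inhibitors and 1 of 12 osteoclast genes. The osteogenic regulators, 26 of 28 measured, split 13 higher and 13 lower in Eln+/- aorta and 10 higher and 16 lower in Eln+/- valve. The mineralised matrix proteins, 14 of 16 measured, were 8 higher and 6 lower in the aorta, and 3 higher and 11 lower in the valve with a median of -0.26, against 0.032 over all genes. In that comparison 11 of 12 smooth muscle markers were lower, with a median of -0.85 and 8 at an unadjusted p under 0.05, and 20 of 20 heart muscle markers higher, with a median of 0.80. Their part in the matrix values was not tested. In the valve their lowest p values belonged to Postn (periostin) at -0.53 and Col1a1 (a chain of type I collagen) at -0.37, with limma adjusted p of 0.4974 and 0.537. Phosphate and pyrophosphate genes, 11 of 15 measured, stood at 4 higher and 7 lower in the aorta and 5 and 6 in the valve, where the pyrophosphate transporter gene Ank had 0.72 (limma adjusted p 0.4233). All 15 inhibitors and vitamin K cycle genes were measured, with 7 higher and 8 lower in each tissue. Among them Tnfrsf11b, the osteoprotegerin decoy receptor gene, had 1.08 in the aorta (limma adjusted p 0.8854), and Ggcx, the vitamin K-dependent carboxylase that activates Mgp, had -0.88 in the valve (limma adjusted p 0.3676). All 12 genes of the osteoclast axis were measured, with 3 higher and 9 lower in the aorta and 5 and 7 in the valve.

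Between tissues several pathway genes did change. In Eln+/- mice 3 of the 26 regulators were called, where 7.06% of all genes were. Sox9, the cartilage transcription factor, was 2.07 log2 units higher in the valve (limma adjusted p 0.0001242), and averaged 1.02 ± 0.26 in valve and -1.05 ± 0.22 in aorta (SD, n = 4 each). Bmp2, a ligand that drives bone formation, was 1.02 higher (limma adjusted p 0.009003), and its receptor gene Bmpr1a was 0.66 lower (limma adjusted p 0.0377). The list's median was 0.13, against -0.0030 over all genes. In Eln+/+ mice, where 1.32% of all genes were called, these 3 regulators had differences of 1.54, 0.96 and -0.79 (limma adjusted p 0.001708, 0.03904 and 0.04781). For Bmpr1a 1 of its 5 further probe sets had the opposite sign there, with values of -0.43 to 0.017, and 0 were called. In Eln+/- mice all 5 had the same sign, at -0.70 to -0.35, and 2 were called. The 2 further probe sets of Sox9 had the same sign with smaller values, 0.43 and 1.54 in Eln+/- and 0.48 and 1.25 in Eln+/+ mice, and 1 of them was called in each genotype.

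Inhibitors held the largest tissue differences of the 5 lists. Ucma, a cartilage protein rich in the vitamin K-made residue Gla, was 3.71 higher in Eln+/- valve than Eln+/- aorta (limma adjusted p 0.0002493) and 3.07 higher in Eln+/+ valve than Eln+/+ aorta (limma adjusted p 0.003066). Its lowest valve array was 0.50 and its highest aorta array -0.77. Bmper, a BMP-binding protein, was 2.92 and 2.90 higher in the valve of Eln+/- and Eln+/+ mice (limma adjusted p 0.001482 and 0.006197), and Ahsg (fetuin A, a mineral-binding serum protein made mainly in liver) 0.52 and 0.90 higher (0.04202 and 0.006197). The BMP antagonist gene Chrdl1 was called in Eln+/- mice at 1.47, with overlapping groups (limma adjusted p 0.03974), and stood at 1.44 in Eln+/+ mice, where it did not pass (limma adjusted p 0.1221). Ggcx was called at -0.90 in Eln+/- mice (limma adjusted p 0.01208) and stood at -0.19 in Eln+/+ mice (limma adjusted p 0.7553). The genotype difference in the valve minus that in the aorta was 0.028 for Chrdl1 and -0.71 for Ggcx (limma adjusted p 0.993 and 0.6258). That interaction called 0 of the 15 in limma, with 2 of the 15 at an unadjusted p under 0.05. Other probe sets of these genes gave smaller values of the same sign in Eln+/- mice: 2.31 for Ucma, -0.45 for Ggcx, both called, and 0.40 to 0.61 on 3 for Chrdl1, none called. In Eln+/+ mice the other Ucma probe set had 1.70 and was not called. In all, 5 of 15 were called in Eln+/- mice, against 7.06% of all genes, and 3 of 15 in Eln+/+ mice, against 1.32%. Sox9 and Ucma also belong to the chondrocyte marker list, whose mean over 18 of 19 genes was 0.030 to 1.51 in Eln+/- valve and 0.14 to 0.88 in Eln+/+ valve, against -0.78 to -0.45 in Eln+/- aorta and -0.87 to -0.64 in Eln+/+ aorta. In each genotype 13 of these 18 genes were higher in the valve and 5 lower, where 49.6% (Eln+/-) and 42.7% (Eln+/+) of all genes were higher. Of the 18 genes 10 were called higher in Eln+/- and 7 in Eln+/+ mice, where 4.41% and 1.19% of all genes were called higher. In Eln+/- mice 20 of 20 heart muscle and 15 of 17 macrophage markers were higher in the valve too. So were 9 of 12 endothelial and 8 of 12 fibroblast and valve interstitial markers. Smooth muscle, fat cell and thymocyte markers were mostly lower there. The part of cartilage or other cell content in the Sox9 and inhibitor values was not tested.

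Of the mineralised matrix proteins 1 of 14 was called in Eln+/- mice, Postn at -0.75 (limma adjusted p 0.04448), a share near the 7.06% of all genes. In these mice 13 of 14 differences were negative, as were 50.4% over all genes, with a median of -0.53. In Eln+/+ mice 12 of 14 were negative, against 57.3% of all genes, with a median of -0.19, and 0 were called in limma or had an unadjusted p under 0.05. Of the 11 phosphate and pyrophosphate genes 1 was called in Eln+/- mice, Ank at 0.97 (limma adjusted p 0.01426), again near the share of all genes, and 0 in Eln+/+ mice, where 1 had an unadjusted p under 0.05. Of the osteoclast axis 0 of 12 were called in either genotype, with 4 at an unadjusted p under 0.05 in Eln+/- and 2 in Eln+/+ mice, against 21.2% and 13.6% of all genes; Mmp9, a matrix protease gene, stood at -0.81 in Eln+/- mice (limma adjusted p 0.06174), and Acp5, the osteoclast acid phosphatase gene, at -2.08 in Eln+/+ mice (limma adjusted p 0.06312). Smooth muscle markers, which cells of the arterial media express along with Mgp, had 11 of 12 genes lower in Eln+/- valve than Eln+/- aorta, 5 of them called. In Eln+/+ mice 11 of 12 were lower too, 0 of them called. The remaining gene, Des (desmin, also a heart muscle protein), was called higher in the valve of both genotypes, at 2.73 in Eln+/- and 1.48 in Eln+/+ mice. The mean of these 12 genes was -1.69 to -0.47 in Eln+/- valve and -0.62 to 0.25 in Eln+/+ valve, against -0.79 to 0.39 in Eln+/- aorta and 0.079 to 0.40 in Eln+/+ aorta. The part of smooth muscle content in the matrix values was not tested.

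Genes whose pattern most resembled each member were ranked among 18192 genes by the smaller of 2 correlations, over the 8 aorta and over the 8 valve arrays, given here as description. Dlx5 was nearest to Matn3 (r = 0.78 in aorta and 0.82 in valve), a cartilage matrix gene that also stands in the inhibitor and chondrocyte lists. Unlike the mean of the chondrocyte list, Matn3 averaged lower in the valve, at -0.77 in Eln+/- and -0.60 in Eln+/+ mice (limma adjusted p 0.4241 and 0.6652). Next to Dlx5 came the lymphocyte activation gene Cd69 (0.77 and 0.89) and the adenosine receptor gene Adora3 (0.71 and 0.74). Dlx6 was nearest to Tmem160, Serpina3i and Tmem69, with the smaller r between 0.79 and 0.81. For Sp7 the nearest were Aldh8a1 (0.88 and 0.88), Oprl1 and 4930455H04Rik. For Alpl they were Ppil6 (0.80 and 0.81), Syt9 and Gm28453. For Mgp they were Rnaseh1 (0.84 and 0.91), the extracellular matrix gene Fbln7 (0.80 and 0.88) and Dapk2. For Ibsp, by 1417484_at whose values may lie near a floor, they were Fam83d (0.86 and 0.91), Gstt1 and Insig1. No gene of the set was among the 3 nearest of another. Between members, Mgp and Ibsp (by 1417484_at) had r = 0.91 in the valve and 0.47 in the aorta, and Sp7 and Mgp 0.84 in the valve and -0.11 in the aorta. Valve Eln+/- replicate 2 was the highest of the 8 valve arrays for all 3 of these probe sets, at 0.43 for Mgp, 0.49 for Ibsp and 0.52 for Sp7. Each r rests on 8 arrays and shares their tissue content, genotype and sex-linked signal. The nearest genes were picked as the highest of 18192, and how high r would reach by such a pick alone was not tested.

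**Figure D2:**
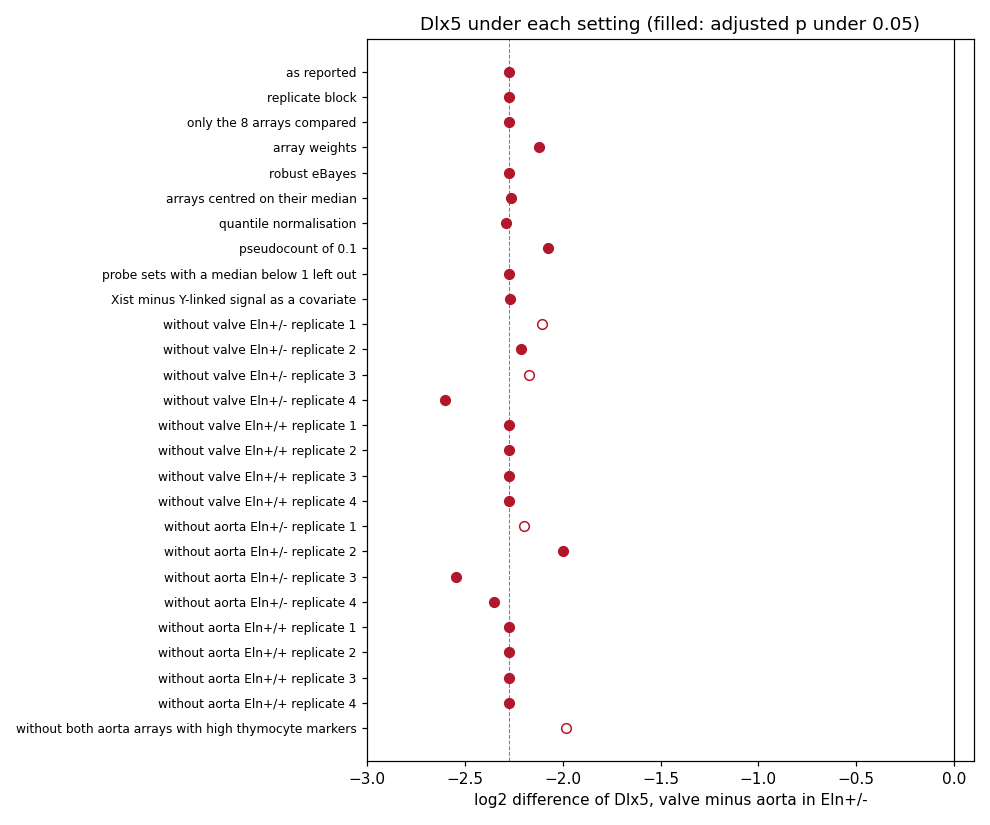
Dlx5 difference in log2 units (horizontal axis), valve minus aorta in Eln+/- mice, under each alternative setting and with each array left out; filled points have a limma adjusted p under 0.05. All values lie between -2.60 and -1.98, and the open points are the 4 settings in which the call was lost.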

How the data were processed

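What the authors deposited is a linear ratio for each probe set and array. Per the submitters' processing notes RMA was used; that the ratio is taken to the probe set's median over the 16 arrays was read from the values (medians were above 1 in 0 probe sets and below 1, as with a floor, in 5274, with a tolerance of 1e-06). Signal level and background are lost, so no filter on dim probe sets by signal was possible, and the number of arrays limits the precision.

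Values were log2-transformed here after 64 control probe sets had been removed. Of 45037 probe sets tested, the annotation gives 1 gene for 34945, several for 932 and none for 9160. Limma 3.58.1 in R 4.3.3 (lmFit, eBayes) fitted 4 group means to all arrays; residual degrees of freedom were 12 and those of the prior 3.60. All p-values are two-sided. The fit was also run on simulated data whose added changes were larger than most member differences, so that run does not bear on small ones. Eln was also tested by exact permutation. Members and lists were chosen with earlier results of these data known.

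All members were named. Of other lists, up to 4 called genes of lowest p, or up to 2 where none was called, could be named. Alternatives covered the replicate block, the arrays in the fit, array weights, robust variance, median centring, quantile normalisation, a pseudocount of 0.1, a filter on medians below 1, the covariates and leaving out each array. Replicate r over all probe sets was 0.20 to 0.60 within groups, and no 2 arrays were identical.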

Additional observations from a re-analysis of the deposited data

Results flagged for a closer look

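Of 28 groups of 4 arrays checked, 1 held an array far from the other 3, and chance gives about 1 such group in 20. It was Mgp in Eln+/+ aorta, where replicate 3 stood at 0.0014 and the other 3 arrays between -0.46 and -0.39. The gap made up 0.834 of the group's range and just passed Dixon's 95% critical value for 4 values. Without that array the genotype difference of Mgp in the aorta was 0.42, against 0.31 with it. The cause was not tested.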

How the results depend on the processing

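The count of called members was 0 for genotype in either tissue, for the interaction and for tissue in Eln+/+ mice under every alternative run. For valve minus aorta in Eln+/- mice it was 1, ranged from 0 to 1 when 1 array was left out, and was 0 without both aorta arrays with high thymocyte markers, a setting chosen after seeing the data (Dlx5 -1.98, adjusted p 0.1193). Over the 26 alternatives Dlx5 ranged from -2.60 to -1.98 there, with limma adjusted p from 0.005465 to 0.1193.

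Signs turned for small differences, none called. Dlx5 for genotype in the valve (-0.037) became 0.0052 with array weights, 0.038 with quantile normalisation and 0.87 with the Xist minus Y-linked covariate, and ranged from -0.36 to 0.24 without 1 array. The Dlx6 interaction (-0.048) became 0.061, 0.014 and, without both thymocyte-marked arrays, 0.18, with a range of -0.23 to 0.17 without 1 array. Without 1 array Sp7 ranged from -0.035 to 0.32 for genotype in the valve and from -0.071 to 0.28 for tissue in Eln+/- mice, and Mgp from -0.0021 to 0.17 for genotype in the valve. Ibsp 1417484_at ranged from -0.0088 to 0.21 for genotype in the aorta, -0.12 to 0.43 for tissue in Eln+/- and -0.18 to 0.037 in Eln+/+ mice, and -0.078 to 0.47 for the interaction. The mean of both Ibsp probe sets gave -0.016 for genotype in the aorta, against 0.13. The cause was not tested.

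Over all probe sets, the 2615 called for tissue in Eln+/- mice ranged from 1366 to 3457 without 1 array, and were 1602 with only the 8 arrays compared and 1578 without both thymocyte-marked arrays, where fewer arrays were fitted. The 426 in Eln+/+ mice ranged from 173 to 553, and were 692 after quantile normalisation. The 0 called for genotype ranged from 0 to 11 in the valve and from 0 to 1 in the aorta without 1 array, and was 1 in the valve with array weights, with the pseudocount and with the filter on medians. With the replicate number as a block Dlx5 stayed at -2.27 (adjusted p 0.04188) with 2041 calls over all probe sets, and no member's call changed. Deviations of same-numbered arrays correlated between -0.15 and 0.071, with 0 of 4 pairs over 0.1 in each comparison, so the numbers were not taken to pair the arrays.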
